A study of Mus musculus with 48 samples.

Results

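The carboxylesterases described here are the 10 mouse liver genes Ces1c, Ces1d, Ces1e, Ces1f, Ces1g, Ces2a, Ces2c, Ces2e, Ces3a and Ces3b. They were found by the gene name that the array files give to each probe that is not a control. Each gene has 1 probe, so 10 of the 56605 probes and 10 of the 37074 gene names on the array were used. All 10 were among the 33323 probes tested, and each was well above background on 8 of 8 arrays of every group with no missing value.

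Carboxylesterases are hydrolases of the endoplasmic reticulum that cut ester, amide and thioester bonds, and the liver is a main site of their expression. The Ces1 enzymes act on drugs and on neutral lipids. Ces1d, known as triacylglycerol hydrolase, mobilises stored triglyceride for very low density lipoprotein, and Ces1f is a related triacylglycerol hydrolase. Ces1e, known as egasyn, holds β-glucuronidase in the endoplasmic reticulum, Ces1g hydrolyses lipid esters, and Ces1c is secreted and is a main esterase of mouse plasma. The Ces2 genes are the mouse counterparts of human CES2, which cleaves drug esters and acylglycerols. The Ces3 genes form a further branch with high expression in liver. PPARα is a nuclear receptor that binds fatty acids and drives genes of fatty acid breakdown.

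Liver RNA of 48 male C57Bl6J mice was measured on Agilent 1-colour arrays. Each mouse had its own array, and the 6 groups held 8 mice apiece. WT mice, Pparα hep-/- mice and Pparα-/- mice each received the control diet (CTRL) or a high fat diet (HFD) with 60% fat. The WT mice came from a supplier and were age-matched, not littermates of the mutants, per the study's methods. Pparα hep-/- mice carry floxed Pparα alleles and an albumin-Cre transgene, so the deletion depends on albumin-driven Cre in hepatocytes and other liver cells keep the gene, whereas Pparα-/- mice lack it in every cell. By their labels all mice were 20 weeks old and had been on their diet for 12 weeks, while the study's text gives a shorter diet, and all mice were kept at thermoneutrality. Levels are log2 of the quantile-normalized spot intensity. A gene was called higher or lower when its adjusted p in limma was at most 0.05.

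The 20 Ces genes in RefSeq (GRCm38.p6) lie in 1 order on chromosome 8, with Ces1a to Ces1h first, then Ces5a, the Ces2 genes, Ces3a, Ces3b and Ces4a. Since neighbours are close copies, the probe sequences decide which gene a value belongs to. The probes of Ces1b, which is not among the 10 genes, and of Ces1c were the most alike over their length. Capitals mark the 49 bases of 55 that match when they are aligned, positions are mm9, and the wide genome spans of both probes show that they cross introns.
Ces1b probe (chr8:95581314-95584247, minus strand): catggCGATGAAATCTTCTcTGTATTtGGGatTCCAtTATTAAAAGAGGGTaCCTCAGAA
Ces1c probe (chr8:95624607-95628058, minus strand): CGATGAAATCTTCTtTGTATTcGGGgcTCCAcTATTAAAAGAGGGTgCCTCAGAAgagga

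The probes of Ces2b and Ces2c share the longest unbroken run, 24 bases, in capitals here with 3 bases on either side.
Ces2b probe, bases 29 to 58 (probe at chr8:107362421-107362480, plus strand): attTGTCACCTCAGTCTTTGAGCTTTCctg
Ces2c probe, bases 3 to 32 (probe at chr8:107378258-107378317, plus strand): atcTGTCACCTCAGTCTTTGAGCTTTCatg
The file also lists the pseudogene Ces2d-ps for the Ces2c probe and Ces3b for the Ces3a probe, so Ces2c and Ces3a values may include a relative. For the other 8 members only the member itself is listed.

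The probes of Ces1d, Ces1e, Ces1f and Ces1g have no such overlap. Their longest shared run in any of the 6 pairs is 6 bases, and Ces1d is shown whole with the first 30 bases of the others.
Ces1d probe (chr8:95698949-95699008, minus strand): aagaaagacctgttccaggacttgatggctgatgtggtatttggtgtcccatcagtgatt
Ces1e probe, bases 1 to 30 (probe at chr8:95725207-95725266, minus strand): caaatgagactactttacatggaagatgat
Ces1f probe, bases 1 to 30 (probe at chr8:95780225-95780284, minus strand): gttcttccactaacagtgtatgtaaatcca
Ces1g probe, bases 1 to 30 (probe at chr8:95826722-95826781, minus strand): agagtctggagctaagaaaagggtgacttt

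The Ces3a and Ces3b probes share at most 7 bases in a row, and any pair of a member with another Ces probe not named above shares at most 10. The remaining members have probes on the plus strand, Ces2a at chr8:107263207-107263266, Ces2e at chr8:107458508-107458567, Ces3a at chr8:107582236-107582295 and Ces3b at chr8:107615484-107615543.

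The 48 arrays came from 6 slides and 2 wash batches, and each wash batch held 3 to 5 mice of every group. An array has no read depth, so precision rests on the number of mice. Median spot intensities of 56 to 91 stood against local backgrounds of 20 to 36, with saturation in 0 spots. Array weights in the fit, which lower the part of arrays that vary more, ran from 0.189 to 2.53. Of the 2 Ppara probes, the first differed by -0.42 (adjusted p = 8.87e-04) between CTRL-fed Pparα hep-/- and WT mice and the second by -0.10 (adjusted p = 0.454). For CTRL-fed Pparα-/- mice the differences from WT were -0.65 (adjusted p = 1.1e-06) and -1.11 (adjusted p = 5.27e-13). On HFD both probes were lower than in WT, by -0.85 (adjusted p = 5.12e-10) and -0.68 (adjusted p = 3.34e-08) in Pparα hep-/- mice and by -1.08 (adjusted p = 2.77e-14) and -1.29 (adjusted p = 1.74e-17) in Pparα-/- mice. Which probe lies in the deleted exon was not settled, so this is a limited check of the labels. The 10 hepatocyte markers, among them Alb, Ttr and Apoa1, were all tested, and log2 of their summed level was 20.58 to 20.80 over the 48 mice.

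2 of the 8 WT HFD mice stood apart in 6 of the carboxylesterases, and most results on WT HFD mice rest on how these mice are counted. They are replicates 1 and 2, 1 from each wash batch, with array weights of 0.537 and 0.343. Ces1d read 13.25 and 11.79 in them against 15.18 to 15.66 in the other 6 WT HFD mice and 13.26 to 14.86 in WT CTRL mice. Ces1g read 10.81 and 9.15 in them against 12.54 to 13.25 in the other 6 and 11.18 to 12.19 in WT CTRL mice. In both genes the pair lay below every other WT mouse of either diet.

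Ces1e at 11.83 and 10.53, Ces1f at 13.46 and 11.20 and Ces2e at 13.47 and 13.12 were likewise below all other WT mice. Ces2c at 11.06 and 10.13 was too, as WT CTRL mice began at 11.53. Ces3a, at 17.98 and 17.79, and Ces3b, at 15.59 and 15.25, were not low in the pair. Ces1c, at 15.94 and 15.48, and Ces2a, at 11.28 and 10.52, were not below all other WT mice, which began at 15.56 and 10.77 on CTRL. Outside the family, Cfd, the adipsin gene, read 7.49 and 5.74 in the pair against 13.90 to 15.51 in the other 6, and Car3, a carbonic anhydrase gene, read 16.14 and 14.28 against 17.49 to 17.69. The summed hepatocyte markers were 20.60 and 20.58 in the pair and 20.63 to 20.73 in the other 6, and values without the pair are given below for the results that it moved most. Since the pair was picked on these same genes, the values without it are a description of 46 arrays and no independent estimate. Both are labelled HFD, whether that label is right was not tested, and every value of the WT HFD group rests on it.

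**Figure D1:**
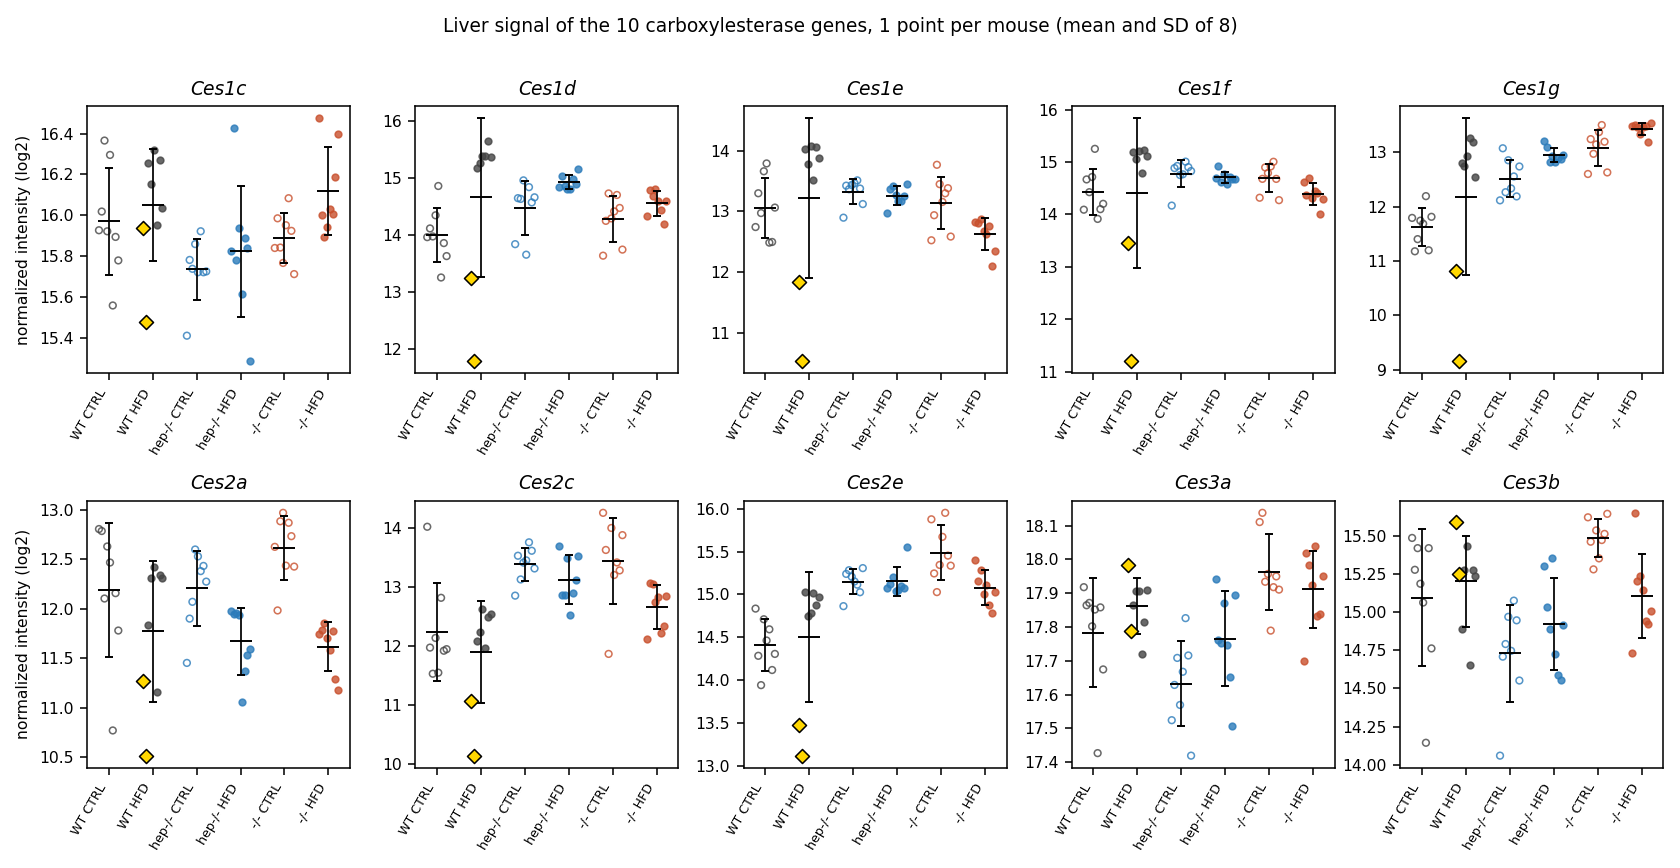
Normalized log2 intensity of each of the 10 genes (y axis) by group (x axis, where hep-/- and -/- are the Pparα genotypes), with 1 point per mouse and bars for the mean and SD of 8 mice. Gold diamonds are WT HFD replicates 1 and 2, which lie below every other WT mouse for Ces1d, Ces1e, Ces1f, Ces1g, Ces2c and Ces2e but not for Ces3a or Ces3b.

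The comparisons ask how the diet changes each gene within a genotype, how genotypes differ on each diet, and whether the diet response differs between genotypes. On HFD against CTRL, 2 of 10 members were called in WT mice, both higher, where 18.7% of all tested probes were called and 8.6% were called higher. In Pparα hep-/- mice 1 was called, lower, against 20.2% of all probes called and 10.8% called lower. In Pparα-/- mice 5 were called, all lower, against 24.8% called and 12.6% called lower. The shares in WT and Pparα hep-/- mice are near the background and that in Pparα-/- mice is above it, but without array weights 1 of 10 members was called in Pparα-/- mice, Ces2a, against 12.1% of all probes. The median log2 fold change over the 10 members was 0.21, -0.02 and -0.38 in the 3 genotypes, while that over all tested probes was -0.01, -0.01 and -0.02.

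On CTRL, 5 members differed between Pparα hep-/- and WT mice, 3 higher and 2 lower, where 24.7% of all probes were called, 11.3% higher and 13.4% lower. Between Pparα-/- and WT mice 3 were called, all higher, against 34.2% called and 15.6% called higher. The share of members called there is near the background. Between Pparα-/- and Pparα hep-/- mice 3 were called, all higher, against 25.2% called and 12.2% called higher, again near the background. The members' medians were 0.30, 0.23 and 0.23, and those of all probes -0.01, -0.02 and 0.00.

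On HFD, 5 members differed between Pparα hep-/- and WT mice, 2 higher and 3 lower, against 26.7% of all probes, 13.3% higher and 13.4% lower. Between Pparα-/- and WT mice 5 were called, 1 higher and 4 lower, against 45.7%, 21.8% higher and 24.0% lower. Between the Pparα-deficient genotypes 3 were called, 2 higher and 1 lower, against 30.6%, 15.2% higher and 15.4% lower. These shares for the Pparα-/- mice on HFD are near the background. Comparisons with a common group share its mice and are not independent of each other. Of the 35 calls in all 12 comparisons, 12 held without array weights and 23 did not, and the unweighted value stands beside each lost call below. The 12 were Ces1g, Ces2c and Ces2e for both deficient genotypes over WT on CTRL, Ces3a and Ces3b between these genotypes on CTRL, Ces2c and Ces2e for Pparα hep-/- over WT on HFD, Ces1g for Pparα-/- over WT on HFD, and Ces2a for HFD in Pparα-/- mice. Dropping the weights also gave 3 calls that the weighted fit lacks, all for Pparα-/- over WT, Ces3a and Ces3b on CTRL and Ces2e on HFD.

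**Figure D2:**
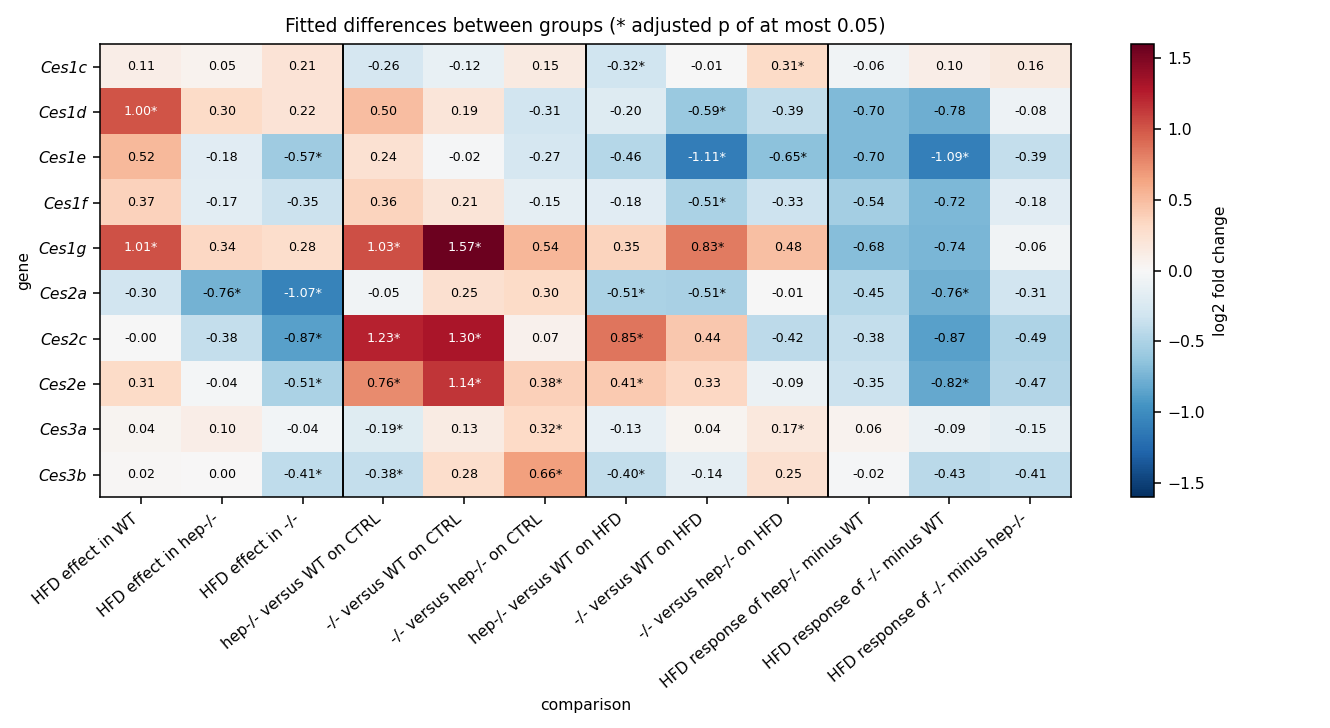
Fitted log2 fold change of each gene (rows) in the 12 comparisons (columns), with colour and number giving the value and an asterisk an adjusted p of at most 0.05. Ces1g, Ces2c and Ces2e are red in both genotypes against WT on CTRL, Ces2a is blue for HFD in both Pparα-deficient genotypes, and Ces1d and Ces1g are red for HFD in WT.

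Ces1d, the triacylglycerol hydrolase, rose on HFD in WT mice. Its level ran from 13.26 (median 13.97) to 14.86 in WT CTRL mice and from 11.79 (median 15.32) to 15.66 in WT HFD mice. The groups overlapped only through replicates 1 and 2 of the WT HFD mice, the other 6 being above every CTRL mouse. The fitted log2 fold change was 1.00 ± 0.26 (SE, adjusted p = 0.00407), a 2.00-fold rise. It was 1.30 without the pair (adjusted p = 2.74e-07, 2.45-fold) and 0.66 without array weights (adjusted p = 0.186), so the call depends on the weights.

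In Pparα hep-/- mice Ces1d ran from 13.66 (median 14.64) to 14.96 on CTRL and from 14.81 (median 14.88) to 15.16 on HFD. In Pparα-/- mice it ran from 13.64 (median 14.36) to 14.73 on CTRL and from 14.19 (median 14.60) to 14.82 on HFD. Neither difference passed the test, with log2 fold changes of 0.30 (95% CI -0.14 to 0.74) and 0.22 (95% CI -0.24 to 0.68). On HFD, Ces1d was called lower in Pparα-/- mice against WT, at -0.59 (adjusted p = 0.0275). Here 5 of 8 Pparα-/- mice were below the WT mean and the plain means were 14.56 and 14.66, and without weights the difference was -0.11 (adjusted p = 0.836) and without the pair -0.88 (adjusted p = 3.23e-06). The difference of means was 0.16 in the first wash batch and -0.37 in the second. Pparα hep-/- mice gained 3 calls against WT on HFD when the pair was left out, all lower, with Ces1d at -0.49 (adjusted p = 0.0105), Ces1e at -0.74 (adjusted p = 6.53e-05) and Ces1f at -0.46 (adjusted p = 0.00222). The Ces2e call was lost in the same fit, and 7 members were then called, against 25.8% of all probes. The pair had been picked on its low values in these genes.

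Ces1f, the second triacylglycerol hydrolase, and Ces1e, which binds β-glucuronidase, followed a similar layout in WT mice. Ces1f ran from 13.91 (median 14.31) to 15.25 on CTRL and from 11.20 (median 15.09) to 15.23 on HFD, and Ces1e from 12.49 (median 13.02) to 13.79 and from 10.53 (median 13.83) to 14.09. HFD mice held both the lowest and many of the highest values, so the groups overlapped. The log2 fold changes were 0.37 ± 0.23 (adjusted p = 0.297) and 0.52 ± 0.24 (adjusted p = 0.132). Without the pair 5 members were called in WT mice, all higher, where 21.3% of all probes were. Ces1f and Ces1e were then among them, at 0.65 (adjusted p = 2.35e-04) and 0.80 (adjusted p = 1.37e-04). The plain differences of means over all 8 mice turned sign in the first wash batch, at -0.36 for Ces1f and -0.13 for Ces1e, against 0.33 and 0.43 in the second.

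Ces1e fell on HFD in Pparα-/- mice. It ran from 12.53 (median 13.23) to 13.77 on CTRL and from 12.09 (median 12.73) to 12.87 on HFD, with 8 of 8 HFD mice below the CTRL mean but overlapping groups. The log2 fold change of -0.57 ± 0.21 lay near the threshold (adjusted p = 0.0475) and missed it in 27 of the 48 fits that each left out 1 mouse, and without weights, at -0.51 (adjusted p = 0.274). On HFD all Pparα-/- mice lay below all Pparα hep-/- mice, which ran from 12.98 (median 13.26) to 13.45, a difference of -0.65 ± 0.20 (adjusted p = 0.0096), and 6.55% of all probes had no overlap in this comparison. Without weights the fit gave -0.62 and no call (adjusted p = 0.163).

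Against WT mice on HFD, Ces1e was lower in Pparα-/- mice by -1.11 ± 0.21 (adjusted p = 2.82e-05), with 8 of 8 below the WT mean, a call that was lost without weights (-0.59, adjusted p = 0.139). The difference of means was -0.19 in the first wash batch and -0.98 in the second. Ces1f was called lower there by -0.51 (adjusted p = 0.0376), although 4 of 8 mice lay below the plain WT mean and the unweighted difference was -0.01 (adjusted p = 0.985). For Ces1f the difference of means was 0.38 in the first wash batch and -0.40 in the second. Leaving out the pair gave -1.39 for Ces1e (adjusted p = 1.46e-11) and -0.78 for Ces1f (adjusted p = 2.16e-07). Ces1f ran from 14.01 (median 14.39) to 14.70 in these Pparα-/- HFD mice, within the span that the pair gives to the WT HFD mice.

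Ces1g was higher in both Pparα-deficient genotypes than in WT mice on CTRL. It ran from 11.18 (median 11.71) to 12.19 in WT mice, from 12.11 (median 12.44) to 13.07 in Pparα hep-/- mice and from 12.60 (median 13.17) to 13.50 in Pparα-/- mice. All Pparα-/- mice lay above all WT mice, as was so for 6.15% of all probes, while the Pparα hep-/- mice overlapped both groups. Ces1g exceeded its WT level by 1.03 ± 0.23 in Pparα hep-/- mice (adjusted p = 9.41e-04, 2.04-fold) and by 1.57 ± 0.25 in Pparα-/- mice (adjusted p = 1.53e-06, 2.96-fold). The difference between the Pparα-deficient genotypes was 0.54 (adjusted p = 0.0683), called at 0.53 (adjusted p = 0.00132) with the WT HFD pair left out of the fit.

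On HFD, Ces1g ran from 9.15 (median 12.77) to 13.25 in WT mice, from 12.81 (median 12.92) to 13.20 in Pparα hep-/- mice and from 13.19 (median 13.47) to 13.53 in Pparα-/- mice. It rose on HFD in WT mice by 1.01 ± 0.24 (adjusted p = 0.00216, 2.02-fold), by 1.30 without the pair (adjusted p = 1.45e-08) and by 0.55 without weights (adjusted p = 0.266). Without the pair the WT HFD and CTRL mice did not overlap for Ces1d and Ces1g, and 3.46% of all probes had no overlap either. The pair was picked for its low values in these genes, so their lack of overlap cannot be set against that share. In Pparα hep-/- mice the change was 0.34 (adjusted p = 0.252), called at 0.33 (adjusted p = 0.0425) with the pair out of the fit, and in Pparα-/- mice it was 0.28 (adjusted p = 0.365). Plain differences of means for WT mice were 0.46 and 0.65 in the first and second wash batch. On HFD the Pparα hep-/- mice differed from WT by 0.35 (adjusted p = 0.23), or 0.07 without the pair (adjusted p = 0.749). Pparα-/- mice were above WT mice on HFD by 0.83 (adjusted p = 0.00119), or by 0.55 without the pair (adjusted p = 3.57e-04).

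Ces2e, a gene of the drug and acylglycerol hydrolase branch, showed the same order on CTRL as Ces1g. It ran from 13.94 (median 14.38) to 14.83 in WT mice, from 14.86 (median 15.18) to 15.31 in Pparα hep-/- mice and from 15.03 (median 15.40) to 15.95 in Pparα-/- mice. Every mouse of either Pparα-deficient genotype was above every WT mouse, with 1.31% of all probes not overlapping between Pparα hep-/- and WT mice. The differences from WT were 0.76 ± 0.15 (adjusted p = 2.5e-04, 1.70-fold) and 1.14 ± 0.16 (adjusted p = 2.03e-07, 2.21-fold). Between the Pparα-deficient genotypes the difference was 0.38 ± 0.15 (adjusted p = 0.0478), and it missed the threshold in 25 of 48 fits that each left out 1 mouse, and without weights (0.35, adjusted p = 0.201).

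On HFD, Ces2e ran from 13.12 (median 14.83) to 15.02 in WT mice, from 15.04 (median 15.09) to 15.55 in Pparα hep-/- mice and from 14.79 (median 15.07) to 15.40 in Pparα-/- mice. Pparα hep-/- mice were all above WT mice, by 0.41 ± 0.14 (adjusted p = 0.0245), with 1.44% of all probes not overlapping, and the call was lost without the pair (0.24, adjusted p = 0.0858) and with slide in place of wash batch (0.37, adjusted p = 0.0582). Pparα-/- mice differed from WT by 0.33 (adjusted p = 0.0521) and by 0.15 without the pair (adjusted p = 0.234), neither called, but the difference was called without weights at 0.58 (adjusted p = 0.0137) and under 4 other alternatives with adjusted p of 0.0385 to 0.0456. In Pparα-/- mice Ces2e fell on HFD by -0.51 ± 0.14 (adjusted p = 0.00698), with 8 of 8 mice below the CTRL mean, but by -0.41 without weights, which was not called (adjusted p = 0.138). In WT mice the diet difference was 0.31 (adjusted p = 0.184), and 0.48 without the pair (adjusted p = 0.00273).

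Ces2c was higher in both Pparα-deficient genotypes on CTRL, with the reservation that its probe shares bases with Ces2b. It ran from 11.53 (median 11.96) to 14.02 in WT mice, from 12.85 (median 13.43) to 13.76 in Pparα hep-/- mice and from 11.86 (median 13.52) to 14.26 in Pparα-/- mice. The groups overlapped through 1 high WT mouse and 1 low Pparα-/- mouse. The log2 fold changes were 1.23 ± 0.27 (adjusted p = 6.92e-04, 2.35-fold) and 1.30 ± 0.29 (adjusted p = 3.13e-04, 2.47-fold).

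On HFD, Ces2c ran from 10.13 (median 12.16) to 12.62 in WT mice, from 12.53 (median 13.01) to 13.70 in Pparα hep-/- mice and from 12.12 (median 12.79) to 13.06 in Pparα-/- mice. Pparα hep-/- mice had more of it than WT mice, by 0.85 ± 0.25 (adjusted p = 0.00826), with 8 of 8 mice above the WT mean and wash batch values of 1.64 and 0.69. On HFD it fell in Pparα-/- mice by -0.87 ± 0.25 (adjusted p = 0.00871). Unweighted, it missed the threshold at -0.79 (adjusted p = 0.0806). The difference was larger in the second wash batch (-1.26) than in the first (-0.32). In WT mice its diet difference was 0.00 (95% CI -0.57 to 0.57), an interval that leaves room for a change of up to that size either way.

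Ces2a, an acylglycerol hydrolase gene, fell on HFD in both Pparα-deficient genotypes. In Pparα-/- mice it ran from 11.98 (median 12.68) to 12.97 on CTRL and from 11.19 (median 11.73) to 11.86 on HFD, and in Pparα hep-/- mice from 11.45 (median 12.33) to 12.60 and from 11.06 (median 11.77) to 11.98. The groups did not overlap in Pparα-/- mice, where 1.44% of all probes did not, and overlapped in Pparα hep-/- mice. The log2 fold changes were -1.07 ± 0.17 (adjusted p = 1.52e-05), 2.09-fold lower, and -0.76 ± 0.16 (adjusted p = 8.5e-04), 1.69-fold lower, with 8 of 8 HFD mice below the CTRL mean in each. Without weights the change in Pparα hep-/- mice was -0.54 (adjusted p = 0.233), and it was -0.36 in the first wash batch and -0.77 in the second.

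In WT mice Ces2a ran from 10.77 (median 12.31) to 12.81 on CTRL and from 10.52 (median 12.07) to 12.43 on HFD, a difference of -0.30 (95% CI -0.69 to 0.08, adjusted p = 0.3), or -0.17 without the pair (adjusted p = 0.545). On HFD it was called lower than in WT mice in both deficient genotypes, at -0.51 for Pparα hep-/- (adjusted p = 0.0213) and -0.51 for Pparα-/- mice (adjusted p = 0.0103). Leaving out the pair gave -0.63 (adjusted p = 0.00184) and -0.64 (adjusted p = 5.99e-04). These calls rest on the weights and on the second wash batch. Only 4 of 8 and 5 of 8 mice lay below the WT mean, without weights they came to -0.11 (adjusted p = 0.834) and -0.16 (adjusted p = 0.652), while the first wash batch gave 0.22 and 0.20.

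**Figure D3:**
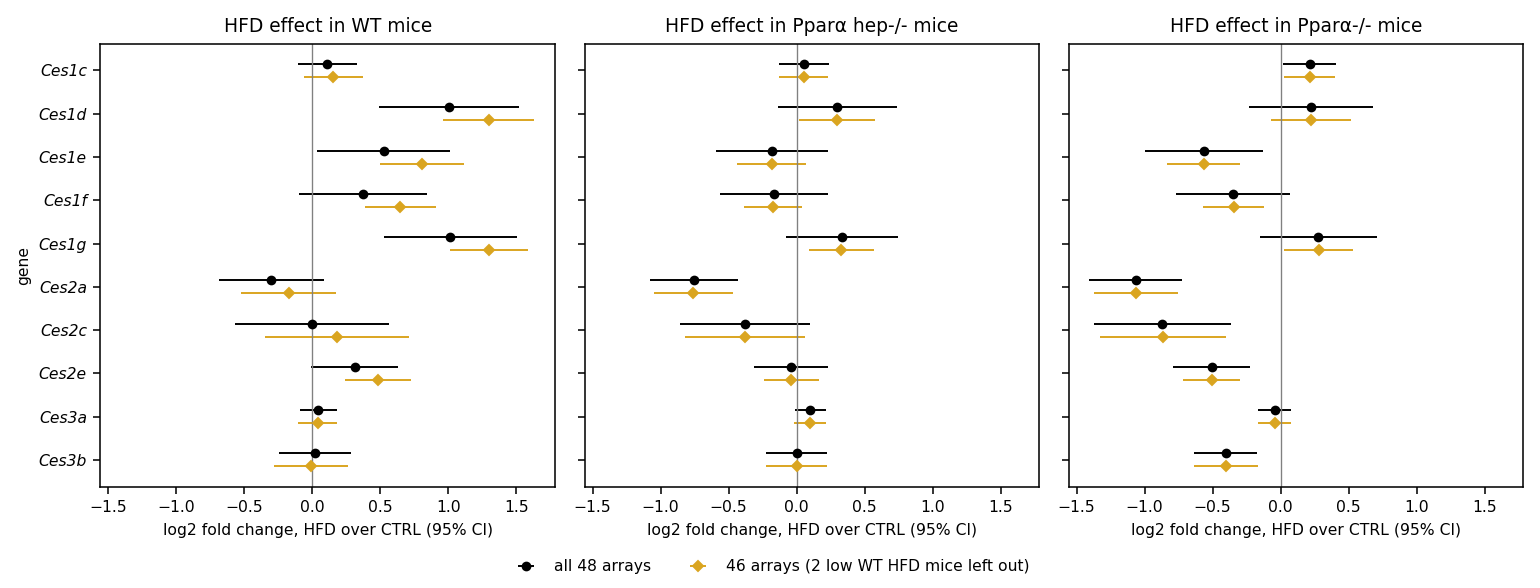
Fitted log2 fold change of HFD over CTRL (x axis, with 95% CI) for each gene (y axis) in the 3 genotypes, from all 48 arrays (black circles) and from 46 arrays without WT HFD replicates 1 and 2 (gold diamonds). Leaving out the 2 mice moves Ces1d, Ces1e, Ces1f, Ces1g, Ces2a, Ces2c and Ces2e up in WT mice. In the other genotypes the values change little, and the intervals of Ces1d, Ces1e, Ces1f, Ces1g and Ces2e narrow.

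Ces3a and Ces3b, the members of the Ces3 branch, were not low in the pair of WT HFD mice. On CTRL, Ces3b ran from 14.14 (median 15.23) to 15.48 in WT mice, from 14.06 (median 14.77) to 15.07 in Pparα hep-/- mice and from 15.28 (median 15.49) to 15.64 in Pparα-/- mice. All Pparα-/- mice lay above all Pparα hep-/- mice, and 4.43% of all probes had no overlap here, while both overlapped the WT mice. For Ces3b the difference between Pparα hep-/- and WT mice was -0.38 ± 0.13 (adjusted p = 0.0243), and that between Pparα-/- and Pparα hep-/- mice was 0.66 ± 0.12 (adjusted p = 2.81e-05, 1.58-fold). The first of these was not called without weights (-0.36, adjusted p = 0.0972). Pparα-/- against WT gave 0.28 for Ces3b (adjusted p = 0.0986) and 0.13 for Ces3a (adjusted p = 0.152), which became calls of 0.39 (adjusted p = 0.0469) and 0.18 (adjusted p = 0.0299) without weights.

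Ces3a moved the same way in smaller steps, -0.19 ± 0.07 (adjusted p = 0.0284) and 0.32 ± 0.06 (adjusted p = 8.2e-05), with group means between 17.63 and 17.96 over all 6 groups, and its first step too was not called without weights (-0.16, adjusted p = 0.0955). The Ces3a probe is also listed for Ces3b, so its values may include Ces3b. On HFD, the Ces3b difference between Pparα hep-/- and WT mice was -0.40 ± 0.12 (adjusted p = 0.00859), and Ces3a was 0.17 ± 0.06 higher in Pparα-/- mice than in the hepatocyte knockout (adjusted p = 0.015). Unweighted, these were -0.28 (adjusted p = 0.267) and 0.14 (adjusted p = 0.137), neither called, and the Ces3b value was -0.11 in the first wash batch and -0.51 in the second. Ces3b fell on HFD in Pparα-/- mice by -0.41 ± 0.12 (adjusted p = 0.00882), from a range of 15.28 to 15.64 to one of 14.73 to 15.65, with 7 of 8 mice below the CTRL mean, and by -0.38 without weights, not called (adjusted p = 0.092). The wash batches gave -0.16 and -0.60. In WT mice the diet difference was 0.04 (95% CI -0.09 to 0.18) for Ces3a and 0.02 (95% CI -0.24 to 0.29) for Ces3b.

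Ces1c, the secreted plasma esterase, had group means between 15.73 and 16.12. On HFD the Pparα hep-/- mice had less of it than WT mice, by -0.32 ± 0.09 (adjusted p = 0.00998), and Pparα-/- mice had more than Pparα hep-/- mice, by 0.31 ± 0.09 (adjusted p = 0.00598). Without weights neither was called, at -0.21 (adjusted p = 0.248) and 0.27 (adjusted p = 0.0808), and without the filter on dim probes the first was not (adjusted p = 0.0777). Its diet difference in WT mice was 0.11 (95% CI -0.11 to 0.33). Its probe resembles that of Ces1b, which did change with genotype (below), and cross-hybridisation between them was not tested.

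The diet response itself was compared between genotypes. Against WT mice, 3 of 10 members had a lower (more negative) diet response in Pparα-/- mice, where 14.3% of all probes were called and 7.42% were called lower. These were Ces1e with a difference of responses of -1.09 ± 0.32 (adjusted p = 0.019), Ces2a with -0.76 ± 0.26 (adjusted p = 0.0371) and Ces2e with -0.82 ± 0.21 (adjusted p = 0.00787). The median over the members was -0.75 against 0.00 over all probes. Without weights none of the 3 kept its call, with -0.66 for Ces1e (adjusted p = 0.368), -0.58 for Ces2a (adjusted p = 0.299) and -0.50 for Ces2e (adjusted p = 0.248). The Ces2e value was -0.35 in the first wash batch and -0.66 in the second, and without the WT HFD pair 7 members were called, all lower, where 16.2% of all probes were.

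Between Pparα hep-/- and WT mice limma called 0 members, against 10.4% of all probes, with 3 at an unadjusted p under 0.05 (Ces1d, Ces1e and Ces1g). Without the pair 5 were called, all lower, where 12.6% of all probes were. Relative to WT the response decreased by 1.00 for Ces1d (adjusted p = 0.00194). The difference was -0.99 for Ces1e (adjusted p = 0.001), -0.82 for Ces1f (adjusted p = 0.00108), -0.97 for Ces1g (adjusted p = 5.92e-04) and -0.52 for Ces2e (adjusted p = 0.0226). Between the Pparα-deficient genotypes limma called 0 members, against 3.42% of all probes, with 2 at an unadjusted p under 0.05 (Ces2e and Ces3b). For Ces1d that difference was -0.08 (95% CI -0.71 to 0.56), an interval that leaves room for a difference in either direction.

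Across the 48 mice the members formed groups that varied together, with wash batch means removed and no test applied, since the mice share groups and a probe's neighbours. Ces1d, Ces1e and Ces1f had Pearson's r of 0.80 to 0.92 among themselves, or 0.64 to 0.89 over 46 mice without the WT HFD pair. With group means removed as well these ranges were 0.91 to 0.96 and 0.67 to 0.87. Ces2e correlated with Ces1g at 0.82 (0.69 without the pair) and with Ces2c at 0.79 (0.68), but within groups at 0.82 (0.40) and 0.67 (0.47). Ces3a and Ces3b correlated at 0.84 with and without the pair, and at 0.79 within groups in both cases, but the Ces3a probe is also listed for Ces3b. Ces1g correlated with Ces1e at 0.43 and with Ces1f at 0.64, and these values were -0.07 and 0.18 without the pair. Within groups they were 0.82 and 0.86 over 48 mice but 0.17 and 0.22 over 46, so the high values rest on the pair.

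**Figure D4:**
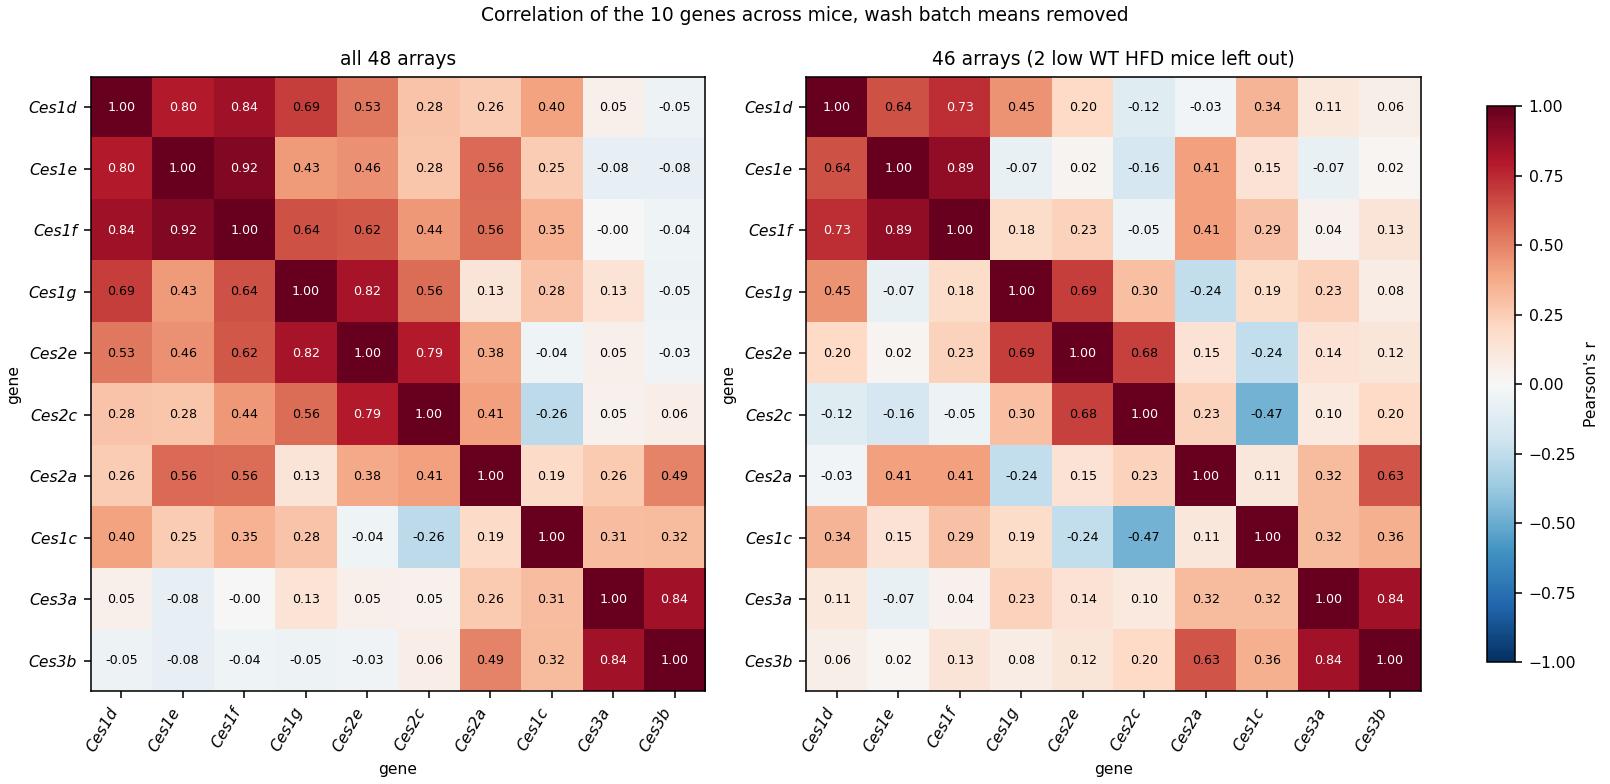
Pearson's r between the 10 genes across mice after removal of wash batch means, over all 48 arrays (left) and over 46 arrays without WT HFD replicates 1 and 2 (right), with colour and number giving r. The block of Ces1d, Ces1e and Ces1f, the Ces1g, Ces2e and Ces2c chain and the Ces3a and Ces3b pair remain on the right, while the correlations of Ces1g with Ces1e and Ces1f fall to -0.07 and 0.18.

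The genes outside the 10 whose values were most like a member over the 48 mice were as follows. Ces1g was nearest to Abcc3, which encodes a basolateral efflux transporter of conjugates (r = 0.91, or 0.88 without the pair), then Stap1 and Slc50a1. Ces2a was nearest to Ugt2b1, a glucuronosyltransferase gene (r = 0.87), Ces2e to Ndufab1 (r = 0.88) and Ces1e to Inmt, an amine methyltransferase gene (r = 0.86). Ces1d was near Car3 (r = 0.83, 0.76 without the pair), and Ces1f was nearest to Kcnh4 (r = 0.83, 0.65 without the pair). Ces3a was nearest to Slc17a3 (r = 0.77), Ces3b to Pax2 (r = 0.85) and Ces1c to Ccdc13 (r = 0.75). The r of Ces2c with Ces2b was 0.995, and as their probes share 24 bases in a row the signals cannot be told apart with these data.

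The RefSeq promoter table (GRCm38.p6) held 7 of the 10 members. The 250 bases before the start of Ces2a, Ces2c and Ces2e, the Ces2 members that fell on HFD in Pparα-/- mice, are shown on the plus strand, with capitals for the 7-base runs that all 3 contain. These runs and genes were chosen after their values were seen.
Ces2a promoter (chr8:104733753-104734002, plus strand): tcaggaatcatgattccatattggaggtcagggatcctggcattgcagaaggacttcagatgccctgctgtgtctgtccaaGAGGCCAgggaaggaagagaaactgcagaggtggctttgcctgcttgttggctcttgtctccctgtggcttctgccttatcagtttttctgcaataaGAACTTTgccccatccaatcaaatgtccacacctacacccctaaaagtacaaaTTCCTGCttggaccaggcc
Ces2c promoter (chr8:104846818-104847067, plus strand): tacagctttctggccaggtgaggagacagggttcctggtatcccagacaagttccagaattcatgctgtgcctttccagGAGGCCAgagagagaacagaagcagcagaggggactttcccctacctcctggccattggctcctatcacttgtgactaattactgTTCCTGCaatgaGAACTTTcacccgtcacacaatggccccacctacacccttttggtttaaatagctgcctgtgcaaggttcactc
Ces2e promoter (chr8:104926010-104926259, plus strand): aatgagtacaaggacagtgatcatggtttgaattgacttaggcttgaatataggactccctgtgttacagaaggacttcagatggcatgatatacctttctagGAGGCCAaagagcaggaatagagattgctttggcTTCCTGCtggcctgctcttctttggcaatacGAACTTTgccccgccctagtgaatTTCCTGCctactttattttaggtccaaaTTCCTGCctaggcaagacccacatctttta
On either strand the run GAACTTT occurs in 3.28% of the 32851 promoters in the table and in 3 of the 7 members. The run GAGGCCA is in 6.56% of promoters and in 4 members. The run TTCCTGC is in 7.28% of promoters and in 4 members. Ces2a and Ces2e also share CAGAAGGACTTCAGATG, which no other promoter of the table holds, and Ces2a and Ces2c share CACCTACACCC, which is in 8 promoters. The nuclear receptor half-site AGGTCA was in 14.0% of promoters and in 1 member, Ces2a. Direct repeats of this half-site with 1 base or 4 bases between them were in 0.0335% and 0.0152% of promoters and in 0 of these 7 windows. These are matches of letters and say nothing of binding.

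Of the other 10 Ces genes in RefSeq order, 9 were on the array and 6 were tested. Against WT mice on CTRL, Pparα-/- mice had 4 of the 6 higher and 1 lower, and Pparα hep-/- mice had 3 higher and 1 lower. In these comparisons 34.2% and 24.7% of all probes were called, and 15.6% and 11.3% were called higher. Ces1b was higher by 1.23 in Pparα-/- mice (adjusted p = 3.9e-07) and rose on HFD in every genotype, with log2 fold changes of 0.57 (WT), 1.22 (Pparα hep-/-) and 0.75 (Pparα-/-). Ces2g was higher by 1.00 in Pparα-/- mice (adjusted p = 1.24e-13), and Ces2b, whose probe overlaps that of Ces2c, by 1.28 (adjusted p = 9.29e-04). Ces4a, the gene called lower, was well above background on 7 of 8 WT CTRL and 8 of 8 WT HFD arrays but on 3 and 1 of 8 arrays of Pparα-/- mice on the same diets, so no fold is given. It read 9.32 and 8.99 in the WT HFD pair against 5.57 to 7.39 in the other 6.

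Among 15 other neutral lipid hydrolases and cofactors, HFD raised 5 and lowered 3 in WT mice, raised 2 and lowered 5 in Pparα hep-/- mice, and raised 2 and lowered 1 in Pparα-/- mice. Of all probes, 18.7%, 20.2% and 24.8% were called for HFD in these genotypes. Pnpla3, a lipid droplet lipase gene, changed by -1.73 in WT mice (adjusted p = 0.0162), and Lpl, the lipoprotein lipase, by -1.26 in WT mice (adjusted p = 0.0147) and 1.43 in Pparα-/- mice (adjusted p = 0.00157). On CTRL, 7 were lower and 1 higher in Pparα-/- than in WT mice, where 34.2% of all probes were called. Among the lower ones was Nceh1, a cholesteryl ester hydrolase, by -1.06 (adjusted p = 6.73e-08). On HFD 8 were lower and 1 higher, where 45.7% of all probes were called, with Abhd6, a monoacylglycerol hydrolase, lower by -1.68 (adjusted p = 6.21e-19).

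Of 10 receptors and factors known to act on Ces genes, 4 rose on HFD in WT mice and 0 fell. There 18.7% of all probes were called and 8.6% were called higher. In Pparα hep-/- mice 1 rose, against 20.2% of all probes called, and in Pparα-/- mice limma called 0, against 24.8%. Nr1i3, which encodes the xenobiotic receptor CAR, rose on HFD in WT mice by 1.04 (adjusted p = 1.85e-05). On CTRL it exceeded its WT level by 1.11 where hepatocytes lacked Pparα (adjusted p = 1.62e-06) and by 1.57 in Pparα-/- mice (adjusted p = 2.7e-10), and the diet response of Pparα-/- minus WT mice was -0.80 (adjusted p = 0.0133). In the WT HFD pair it read 11.52 and 10.81 against 12.03 to 12.48 in the other 6. Ces1d, Ces1f, Ces1g and Ces2e had the same signs in these comparisons, which share mice. Of their response differences only that of Ces2e was called, and that of Ces1g was -0.74 (adjusted p = 0.117). A link between Nr1i3 and these genes was not tested.

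Markers of other cells moved with some of these comparisons, and in whole liver fewer cells of a type and less RNA per cell cannot be told apart. All 8 macrophage markers were tested. They were higher for 5 of 8 in Pparα-/- against WT mice on CTRL, 7 of 8 on HFD, and 6 of 8 for HFD in Pparα-/- mice, with 0 lower. In these comparisons 34.2%, 45.7% and 24.8% of all probes were called. The markers were also higher for 4 of 8 with HFD in Pparα hep-/- mice, 5 of 8 in these against WT mice on HFD and 4 of 8 between the deficient genotypes on HFD, again with 0 lower. There 20.2%, 26.7% and 30.6% of all probes were called. Log2 of the summed macrophage markers ran from 14.04 to 15.88 in WT CTRL, 13.51 to 16.02 in WT HFD, 14.52 to 16.36 in Pparα-/- CTRL and 15.29 to 16.43 in Pparα-/- HFD mice. In Pparα hep-/- mice it ran from 14.73 to 16.72 on CTRL and from 15.12 to 15.97 on HFD. Of 10 hepatocyte markers 1 was higher and 4 lower in Pparα-/- than in WT mice on CTRL, and 0 were higher and 3 lower in Pparα hep-/- against WT mice on CTRL, in Pparα-/- against WT mice on HFD and between the deficient genotypes on HFD. In that order 34.2%, 24.7%, 45.7% and 30.6% of all probes were called. HFD raised 0 and lowered 2 in WT mice, raised 1 and lowered 1 in Pparα hep-/- mice, and raised 1 and lowered 2 in Pparα-/- mice. There 18.7%, 20.2% and 24.8% of all probes were called. The part of these markers in the carboxylesterase results was not tested.

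Of 8 white adipocyte markers 6 were tested, and Adipoq and Plin1, which define the cell type, were well above background on too few arrays of any group. HFD in WT mice raised 3 of the 6 and lowered 0, where 18.7% of all probes were called, with Cfd higher by 5.79 (adjusted p = 3.81e-07). On HFD, 1 was higher and 4 lower in Pparα-/- than in WT mice, and 1 higher and 2 lower in Pparα hep-/- than in WT mice. Against these stood 45.7% and 26.7% of all probes called. On CTRL 2 were lower in Pparα-/- than in WT mice, where 34.2% of all probes were called. Log2 of the summed adipocyte markers was 15.31 to 17.26 in WT CTRL and 14.42 to 17.99 in WT HFD mice. Of 8 intestinal epithelium markers 3 were tested, while Cdx1, Cdx2, Lct, Muc2 and Cdh17 were not. HFD raised 2 of the 3 in WT mice and 2 of the 3 in Pparα-/- mice, where 18.7% and 24.8% of all probes were called. On CTRL all 3 were lower in Pparα-/- than in Pparα hep-/- mice and 2 of the 3 than in WT mice. In these comparisons 25.2% and 34.2% of all probes were called. Log2 of the summed intestinal markers was 14.27 to 15.37 in WT CTRL and 13.54 to 15.80 in WT HFD mice.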

How the data were processed

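Arrays had been scanned and read with Agilent Feature Extraction 10.10.1.1, per the submitters' processing notes. The authors deposited median spot intensities, neither background subtracted nor normalized, and a table of log2 values, to which the authors had applied a filter, a washing bath correction and quantile normalization. Here intensities were log2 transformed, outlier spots were left out, and spots of a probe were averaged. A probe was kept if 4 or more of the 8 arrays in any group flagged it as well above background, and the kept probes were quantile normalized. limma 3.58.1 in R 4.3.3 was fitted to all 48 arrays with group means, a wash batch term and array weights. Benjamini-Hochberg adjustment ran over 33323 probes within each of 12 comparisons. Errors are SE unless named. Mice are the replicates. The fit was tested on simulated data. The 10 members, the other gene lists and the tests were chosen with earlier results of these data known. All members are named, and of the other lists at most 4 called genes per comparison. Alternatives were other normalizations, filters, batch terms and weights, leaving out each mouse, and, chosen after seeing the data, leaving out WT HFD replicates 1 and 2.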

Additional observations from a re-analysis of the deposited data

Results flagged for a closer look

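In 6 of the 60 sets of 8 mice (10 genes in 6 groups) an extreme mouse lay far from its nearest neighbour relative to the range of its group, where chance gives about 1 in 20 such sets. These were the lowest WT HFD mouse for Ces1c at 15.48 and for Ces1f at 11.20, the lowest Pparα hep-/- CTRL mouse for Ces1c at 15.41 and for Ces1f at 14.17, the lowest Pparα-/- CTRL mouse for Ces2c at 11.86, and the highest Pparα hep-/- HFD mouse for Ces2e at 15.55. The nearest mice read 15.94, 13.46, 15.72, 14.75, 13.20 and 15.20.

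The diet response differed between Pparα-/- and WT mice in limma for Ces1e, by -1.09 (adjusted p = 0.019), for Ces2a, by -0.76 (adjusted p = 0.0371), and for Ces2e, by -0.82 (adjusted p = 0.00787). Without WT HFD replicates 1 and 2 these values were -1.37, -0.89 and -0.99. Without array weights they were -0.66, -0.58 and -0.50, and none was called.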

How the results depend on the processing

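Counts of members called moved by over 1.5 times in 29 of 120 recounts over 10 alternatives, and 0 of these counts moved with normexp background correction or with the authors' log2 values. Percentages beside counts are the share of all probes called in the same setting. Without array weights the limma counts for HFD were 0 for WT mice (12.6%; 1 at an unadjusted p under 0.05), 0 for Pparα hep-/- mice (3.81%; 2 unadjusted) and 1 for Pparα-/- mice (12.1%), 3 (16.6%) and 5 (31.0%) for Pparα hep-/- and Pparα-/- against WT on CTRL, 2 (9.74%) and 2 (31.7%) on HFD, 0 between the Pparα-deficient genotypes on HFD (18.1%, 3 unadjusted) and 0 for the response of Pparα-/- minus WT mice (5.22%, 1 unadjusted). Without a filter on dim probes, Pparα hep-/- against WT gave 3 on CTRL (11.2%) and 2 on HFD (9.95%), Pparα-/- against WT on HFD 3 (23.3%), and the response of Pparα-/- minus WT 0 (4.47%, 5 unadjusted). Of 35 single calls 14 were lost without this filter, 7 without a wash batch term, and 0 to 5 with the authors' values, normexp, 75th percentile scaling, the replicate block or the slide block. Scaling to the 75th percentile gave 3 for Pparα hep-/- against WT on CTRL (24.8%) and 5 for the response of Pparα-/- minus WT (15.9%), no wash batch term gave 1 for that response (9.3%), and a slide block gave 3 for Pparα-/- against WT on HFD (43.6%).

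With WT HFD replicates 1 and 2 left out, HFD counts were 5 in WT (21.3%) and 2 in Pparα hep-/- mice (20.5%), that between the Pparα-deficient genotypes on HFD 6 (30.5%), and the responses minus that of WT mice 5 (Pparα hep-/-, 12.6%) and 7 (Pparα-/-, 16.2%). With weights dropped as well they were 5 in WT (17.4%) and 0 in Pparα hep-/- mice (4.68%, 4 unadjusted), 5 for Pparα-/- against WT on CTRL (32.1%), 1 for Pparα hep-/- against WT on HFD (6.82%), and 4 (2.47%) and 5 (7.6%) for the responses. Leaving out 1 mouse at a time gave 2 to 5 for HFD in WT mice, 1 to 1 in Pparα hep-/- and 4 to 5 in Pparα-/- mice; 3 to 6, 3 to 4 and 2 to 4 on CTRL for Pparα hep-/- against WT, Pparα-/- against WT and the 2 deficient genotypes; 3 to 7, 3 to 6 and 2 to 5 on HFD; and 0 to 4, 1 to 6 and 0 to 0 for the responses. No share of all probes stands beside the counts with 1 mouse left out, so these counts cannot be set against a background. HFD in WT mice gave 5 without WT HFD replicate 2 and 4 without replicate 1, the response of Pparα hep-/- minus WT 4 and 1, and that of Pparα-/- minus WT 6 and 6, but 1 without replicate 7 or 8. WT CTRL replicate 1 or Pparα hep-/- CTRL replicate 8 gave 3 for Pparα hep-/- against WT on CTRL. WT HFD replicate 7 or Pparα hep-/- HFD replicate 6 gave 3 for that comparison on HFD, WT HFD replicate 5 or 8 gave 3 for Pparα-/- against WT on HFD, and WT HFD replicate 2 or Pparα hep-/- HFD replicate 1 gave 5 between the deficient genotypes on HFD.

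Among called differences, the sign turned in the first wash batch for Ces2a on HFD in Pparα hep-/- (0.22) and Pparα-/- mice (0.20) against WT, and in the latter comparison for Ces1d (0.16) and Ces1f (0.38). Differences that were not called turned sign there as well, such as Ces1e in Pparα hep-/- against WT mice on HFD (0.30). Ces3a in Pparα-/- against WT mice on HFD was -0.25 (adjusted p = 0.0207) under 75th percentile scaling. That scaling moved the share of all called probes that were higher from 46.8% to 35.5% for HFD in Pparα hep-/- mice, from 49.3% to 35.6% in Pparα-/- mice, from 49.7% to 37.8% for Pparα hep-/- against WT on HFD, and from 44.4% to 31.2% and 48.3% to 29.9% for the responses of Pparα hep-/- and Pparα-/- minus WT mice. Same-numbered mice of different groups correlated above 0.1 in 37 of 120 pairs, not in all, so replicate numbers were not taken to pair mice; 11 of 48 arrays correlated best with one of their own number, where number alone gives 6 by chance. A replicate block gave 3 for Pparα-/- against WT on HFD (45.0%) and moved 0 other counts by over 1.5 times. Causes were not tested. Other probes of a member could not be tried, since each has 1. The scanner flagged 0 spots as saturated, and compression of bright signals was not tested.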
